A study of Rattus norvegicus with 12 samples.

Results

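TGF-beta is a secreted growth factor that drives scar formation in injured liver. Its ligands leave the cell in a latent complex tethered to the matrix by latent TGF-beta binding proteins. Once released, they bind the type II receptor, which recruits the type I receptor. SMAD proteins then carry the signal to the nucleus, where they induce matrix genes and also inhibitors of the pathway itself. In fibrotic liver, hepatic stellate cells, the pericytes of the sinusoids, are the best known responders. The 10 genes described here are the ligands Tgfb1, Tgfb2 and Tgfb3, the latency protein Ltbp1, the receptors Tgfbr1, Tgfbr2 and Tgfbr3, the inhibitors Smad7 and Bambi, and the target gene Ccn2 (connective tissue growth factor, named Ctgf in the file). They were chosen by gene symbol out of 13897 named genes and are read by 18 of the 31099 probe sets of the array. Of these 18 probe sets, 15 passed a filter on dim signals, and each of the 10 genes kept at least 1. The 3 left out all read Tgfb2.

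The RNA came from livers of Sprague-Dawley rats labelled 12 weeks old and was read on 12 Affymetrix rat genome arrays. The 4 groups, of 3 arrays each, were normal liver (0h) and the livers at 3 weeks (3w), 6 weeks (6w) and 9 weeks (9w) of carbon tetrachloride, a solvent that hepatocytes convert into a radical that injures them, given to model cirrhosis. Arrays within a group are labelled as technical replicates with no count of animals, so every p-value measures the spread between arrays only. No group given vehicle alone or followed in time without the solvent was analysed here, so time and treatment cannot be told apart.

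Signals are in the authors' scaled linear units, with mean ± SD over 3 arrays. Changes are differences of log2(signal + 16) with their SE, which understates the change of dim probe sets. Rose and fell are used of a probe set with a change of 2-fold or more and a limma p under 0.05 after Benjamini-Hochberg adjustment over the 18609 probe sets past the filter. A gene was counted by its brightest probe set past the filter, and 10317 genes had one. The filter lay at a signal of 75.5. Hepatocyte markers were bright in all groups, with albumin (Alb) at 40836 ± 3879 at 0h, 39383 ± 1795 at 3w, 32575 ± 3665 at 6w and 34373 ± 1048 at 9w. Of 3 measured pancreatic transcripts, Cpa1 (carboxypeptidase A1) stood apart in the 0h arrays, at 28.0 ± 25.2 at 3w against 6264 ± 251 at 0h. Cpb1, a related enzyme, had 185 ± 39.6 at 3w against 210 ± 42.4 at 0h and fell at 6w and 9w, and Pnlip (pancreatic lipase) had 107 ± 26.2 at 3w against 57.4 ± 12.3 at 0h and did not pass at any time. The comparisons with 0h all share these 3 arrays, and the part of this difference in the results was not tested.

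Of the 10 genes, Tgfb1, Ltbp1 and Ccn2 rose at 6 and at 9 weeks. Their promoter windows from RefSeq (build GRCr8, 250 bases before to 50 after the annotated start) are shown because SMAD binding sites are sought in such windows. Capitals mark the SMAD core GTCT or its other strand AGAC and, in Ccn2, also GGAATG, bound by TEAD factors, and the TATA box TATAAA. The windows are Ccn2 at chr1:22624565-22624864 on the minus strand, Ltbp1 at chr6:26177252-26177551 on the minus strand and Tgfb1 at chr1:90324062-90324361 on the plus strand.
Ccn2: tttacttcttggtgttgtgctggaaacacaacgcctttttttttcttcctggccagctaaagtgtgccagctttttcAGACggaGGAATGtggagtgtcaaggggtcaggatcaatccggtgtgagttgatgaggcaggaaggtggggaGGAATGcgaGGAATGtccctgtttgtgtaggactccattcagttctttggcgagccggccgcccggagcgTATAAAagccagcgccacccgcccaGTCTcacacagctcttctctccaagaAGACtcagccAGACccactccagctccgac
Ltbp1: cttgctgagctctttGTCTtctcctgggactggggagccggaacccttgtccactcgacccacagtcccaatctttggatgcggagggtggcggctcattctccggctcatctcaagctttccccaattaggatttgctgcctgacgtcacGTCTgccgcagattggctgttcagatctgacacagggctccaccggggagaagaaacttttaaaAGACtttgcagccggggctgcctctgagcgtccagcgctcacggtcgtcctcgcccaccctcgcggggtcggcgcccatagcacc
Tgfb1: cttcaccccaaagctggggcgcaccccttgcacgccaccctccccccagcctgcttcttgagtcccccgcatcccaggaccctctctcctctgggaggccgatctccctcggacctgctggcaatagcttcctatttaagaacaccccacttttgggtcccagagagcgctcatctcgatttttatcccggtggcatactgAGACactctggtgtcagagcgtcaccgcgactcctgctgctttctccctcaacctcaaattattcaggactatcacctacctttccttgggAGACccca

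Each motif was searched on both strands in the windows of 27457 genes, with all 10 members among them. The SMAD core was found 4 times in Ccn2, 3 times in Ltbp1 and 2 times in Tgfb1, and 8 of the 10 members held it, against 88.7% of all windows. The longer CAGACA, which contains the core and is known as the CAGA box, was in none of the 10 windows, and 20.8% of all windows held it. The palindrome GTCTAGAC, which also contains the core, was in none of the 10 and in 0.215% of all. Ccn2 held GGAATG 3 times, beginning 166, 101 and 92 bases before the start, a motif present in 13.9% of all windows. It was the only member with that motif and the only one with TATAAA, beginning 31 bases before the start (14.3% of all). The AP-1 motif TGANTCA was in none of the 10 and in 7.33% of all. These are matches of letters, not measured binding.

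Tgfb1, the main profibrotic ligand, had the largest change of the 10 genes at each time. Its signals were 11.8, 8.1 and 20.9 at 0h, 271.9, 222.1 and 268.6 at 3w, 206.2, 220.4 and 154.4 at 6w, and 359.0, 386.6 and 364.7 at 9w. All 9 arrays of the model lay above all 3 arrays at 0h, where every signal was below the filter level, so the gene passed the filter through the model's arrays. The rise was 3.21 ± 0.20 at 3w (adjusted p = 2.46e-09), 2.83 ± 0.20 at 6w (adjusted p = 3.35e-09) and 3.73 ± 0.20 at 9w (adjusted p = 1.02e-10). Because the 0h signals were so dim, the size depends on the added constant: with 64 in place of 16 the rises were 2.04, 1.73 and 2.49, and with 4 they were 3.93, 3.54 and 4.47. In the authors' deposited table, all 9 log2 ratios of each time against 0h were above 0, with medians of 3.6 at 3w, 3.2 at 6w and 4.3 at 9w.

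Within the model, Tgfb1 was highest at 9w, next at 3w and lowest at 6w. The arrays of 9w lay above those of 6w, with a difference of 0.89 ± 0.20 that was short of 2-fold (adjusted p = 0.00298). The difference of 9w minus 3w was 0.52 ± 0.20 (adjusted p = 0.0448), also short of 2-fold. The 6w arrays all lay below those of 3w, but the difference of -0.37 ± 0.20 did not pass (adjusted p = 0.146).

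Several cell types of the liver make Tgfb1, and the levels of their markers are given here beside it. In bulk tissue, fewer cells of a type and less RNA per cell cannot be told apart. Over 9 measured macrophage markers, the summed signal was 27347 to 28080 at 0h, 35067 to 36327 at 3w, 21195 to 21492 at 6w and 27457 to 27864 at 9w. At 6w, 3 of these 9 macrophage markers fell (Adgre1, Itgam and Aif1), against 4.43% of all genes, and none rose, against 5.14%. The list median at 6w was -0.63, and Cd14 went the other way, at 0.57 ± 0.05, short of 2-fold. Lyz2, Clec4f and Cd14 were the brightest of this list in every group and weigh most in its sum. At 3w, where the sum was highest, the list median was 0.23 and Cd163 lay at -0.69 ± 0.10. Platelets carry stores of the protein, and 2 of 6 platelet markers were measured. Their summed signal was 634 to 698 at 0h, 1020 to 1065 at 3w, 680 to 752 at 6w and 405 to 508 at 9w. These 2 markers parted at 3w, with Pf4 at 0.91 and Ppbp at -0.29, so the higher sum at 3w came from Pf4. They also parted at 6w, with Pf4 at 0.42 and Ppbp at -1.05. Over 8 endothelial markers the summed signal was 9515 to 10209 at 0h, 10689 to 10992 at 3w, 5333 to 5772 at 6w and 7406 to 7986 at 9w. Over 6 lymphocyte markers it was 1636 to 1808 at 0h, 2140 to 2359 at 3w, 997 to 1123 at 6w and 2102 to 2413 at 9w. Most of this last sum was Ptprc alone, with means of 1026 at 0h, 1315 at 3w, 626 at 6w and 1289 at 9w. Among these lists Ppbp of platelets fell at 6w and 9w, and Kdr and Plvap of endothelium and Cd3d of T cells fell at 6w. Single markers did not all follow their sum. At 6w the endothelial median was -0.7, with Pecam1 at 0.21 and Vwf at 0.02.

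**Figure D1:**
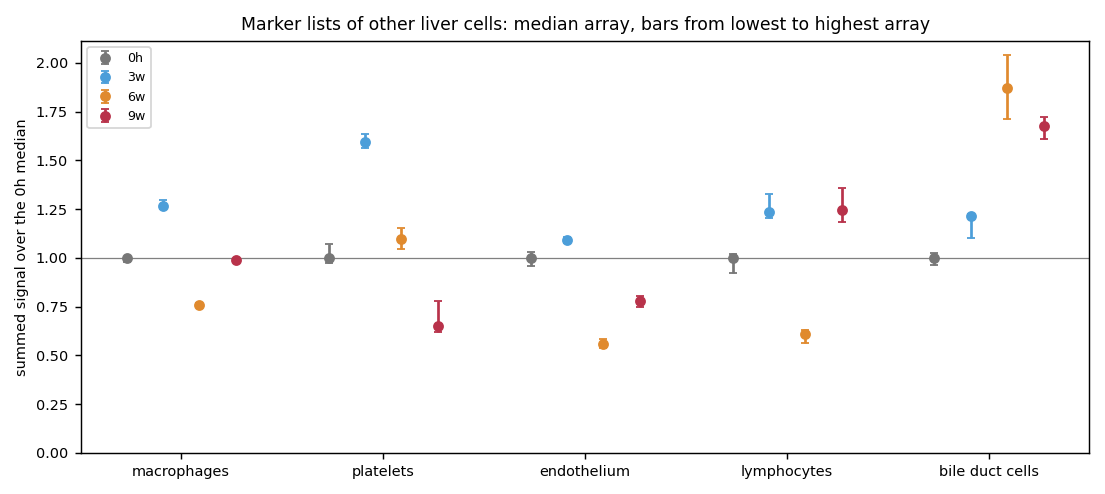
Summed signal of 5 marker lists, relative to the median 0h array (vertical axis, linear from 0); points are the median array of each group at 0h, 3w, 6w and 9w, and bars run from the lowest to the highest of its 3 arrays. The sums of macrophage, endothelial and lymphocyte markers were lowest at 6w, and that of platelet markers at 9w. Single markers did not all follow their sum.

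Of the stellate cell and myofibroblast markers, Acta2 (smooth muscle actin) and Col1a1 rose at 3w, none rose at 6w, and Col1a1 and Tagln, an actin-binding protein, rose at 9w. Over 3 measured bile duct markers the sum was 1365 to 1452 at 0h, 1562 to 1741 at 3w, 2432 to 2893 at 6w and 2281 to 2445 at 9w, and the higher sum at 6w came from Spp1 (osteopontin), which rose at each time. At 6w Krt19 differed by -0.56 and Epcam by -0.41, and the list median was -0.41. None of the 8 hepatocyte markers reached 2-fold at any time. Their list medians were -0.06 at 3w, -0.38 at 6w and -0.31 at 9w. At 6w they ran from -0.80 ± 0.07 for Apoc3 (adjusted p = 8.76e-08) to 0.12 ± 0.05 for Apoa1. Markers below the filter were left out, so these lists cannot show the absence of a marker. The part of these cell types in the changes of the 10 genes was not tested.

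Tgfb3, the third ligand, rose at 9w. Its signals were 65.2, 45.9 and 83.0 at 0h, 90.2, 61.0 and 77.0 at 3w, 108.5, 132.3 and 102.9 at 6w, and 167.4, 133.2 and 175.7 at 9w. The arrays of 6w and 9w lay above all those of 0h, while 3w and 0h overlapped. The rise at 9w was 1.13 ± 0.24 (adjusted p = 0.000697). The 0h mean, 64.7, was under the filter level, so the gene passed the filter through its later arrays. It was 0.95 without 0h replicate 2, the dimmest array of that group, and then short of 2-fold. At 6w the difference was 0.71 ± 0.24 (adjusted p = 0.0192) and at 3w 0.20 ± 0.24 (adjusted p = 0.529). Neighbouring times did not differ beyond 2-fold, with 0.51 ± 0.24 for 6w minus 3w (adjusted p = 0.0964) and 0.42 ± 0.24 for 9w minus 6w (adjusted p = 0.227).

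Tgfb2, the ligand best known from development and epithelia, was read by 5 probe sets that did not move together. The brightest, 1388011_a_at, had signals of 109.1, 186.6 and 193.0 at 0h, 90.4, 111.3 and 102.4 at 3w, 127.4, 114.3 and 106.2 at 6w, and 84.1, 118.2 and 134.0 at 9w. One dim 0h array made every time overlap with 0h, and the differences from 0h of -0.57, -0.40 and -0.46 (SE 0.23 each) did not pass (adjusted p = 0.059, 0.162 and 0.105). The second probe set past the filter, 1376425_at, lay on the other side of 0, at 0.39, 0.58 and 0.56 (SE 0.25 each), and did not pass either (adjusted p = 0.234, 0.067 and 0.0753).

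The 3 Tgfb2 probe sets below the filter were dimmest at 0h or 3w. For 1387172_a_at the group means were 48.6 ± 39.2 at 0h, 30.2 ± 10.4 at 3w, 99.9 ± 11.3 at 6w and 126 ± 31.6 at 9w. For 1392382_at they were 21.4 ± 9.85 at 0h, 40.4 ± 10.9 at 3w and 60.7 ± 11.3 at 6w, with signals of 51.9 to 64.8 at 9w. For 1378963_at they were 6.07 ± 4.31 at 0h, 33.6 ± 13.5 at 3w, 28.7 ± 5.98 at 6w and 18.2 ± 13.1 at 9w. In a fit with no filter, 1392382_at differed from 0h by 1.06 at 6w (adjusted p = 0.0149) and 1.05 at 9w (adjusted p = 0.0148), 1387172_a_at by 1.28 at 9w (adjusted p = 0.0155), and 1378963_at by 1.14 at 3w (adjusted p = 0.0211) and 1.03 at 6w (adjusted p = 0.0294), with means on either side of the filter level or under it. In the same fit 1387172_a_at was higher at 6w than at 3w by 1.34 (adjusted p = 0.0142) and at 9w than at 3w by 1.62 (adjusted p = 0.00419). The 5 probe sets gave no single direction for Tgfb2.

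Ltbp1, which binds latent TGF-beta and tethers it to the matrix, was higher at each time than at the time before. Its signals were 167.2, 200.2 and 184.2 at 0h, 263.5, 327.8 and 327.1 at 3w, 395.0, 383.3 and 442.1 at 6w, and 593.5, 525.3 and 493.4 at 9w. No 2 neighbouring groups overlapped. The difference from 0h was 0.69 ± 0.12 at 3w (adjusted p = 0.000319), short of 2-fold, and the rises were 1.08 ± 0.12 at 6w (adjusted p = 1.39e-06) and 1.47 ± 0.12 at 9w (adjusted p = 3.34e-08). The steps were 0.40 ± 0.12 for 6w minus 3w (adjusted p = 0.0156) and 0.39 ± 0.12 for 9w minus 6w (adjusted p = 0.0297), each under 2-fold.

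**Figure D2:**
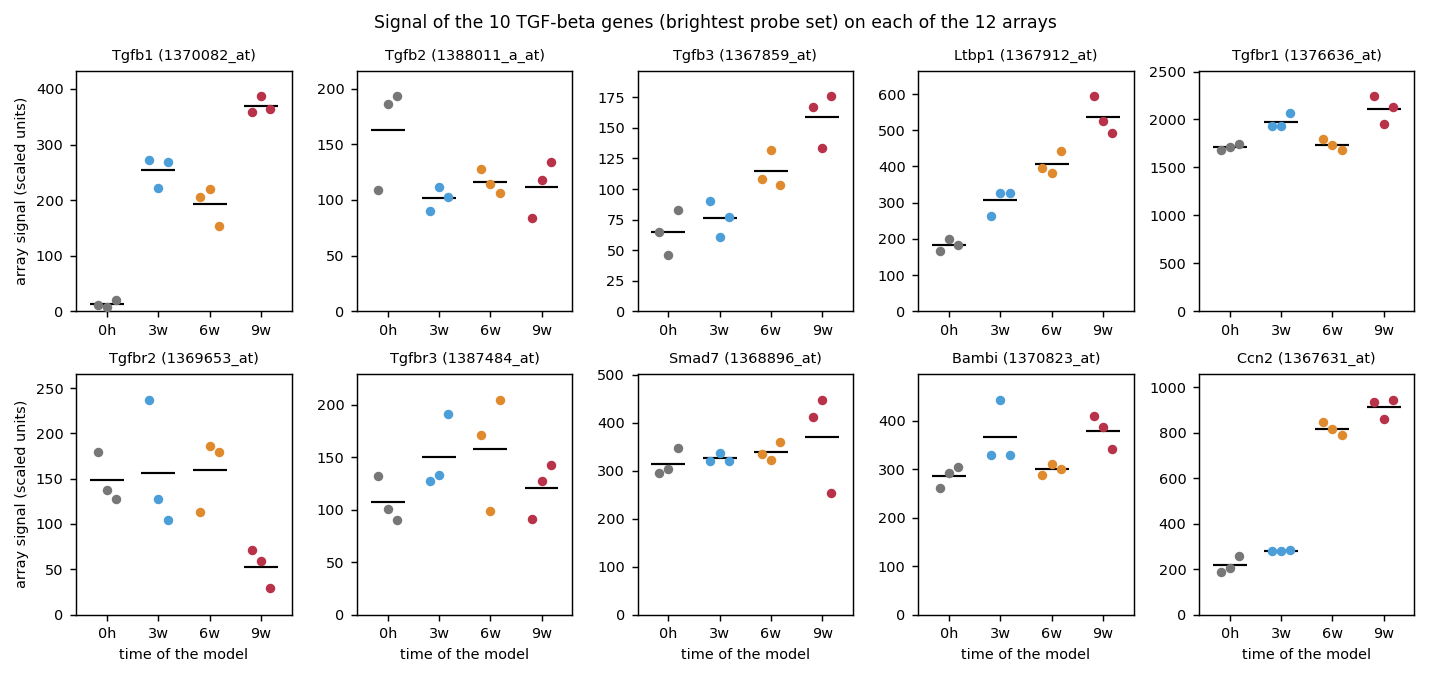
Array signal in the authors' scaled units (vertical axes, each linear from 0) of the brightest probe set past the filter of each of the 10 genes at 0h, 3w, 6w and 9w; points are single arrays and bars are means of 3. Tgfb1 is near 0 in all 0h arrays, Ltbp1 is higher at each later time, Ccn2 is high at 6w and 9w, and Tgfbr2 is low at 9w.

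Ccn2, a matricellular protein induced by TGF-beta and by the YAP and TEAD factors, changed late. Its signals were 187.1, 204.1 and 255.8 at 0h, 277.6, 277.2 and 281.5 at 3w, 846.8, 814.4 and 789.7 at 6w, and 932.0, 860.4 and 944.6 at 9w. The 6w and 9w arrays lay far above those of 0h and 3w. At 3w the difference was 0.36 ± 0.10 (adjusted p = 0.0125), short of 2-fold, while the rises were 1.86 ± 0.10 at 6w (adjusted p = 2.32e-10) and 2.01 ± 0.10 at 9w (adjusted p = 8.12e-11). Ccn2 was the only one of the 10 genes that rose in the step of 6w minus 3w, by 1.50 ± 0.10 (adjusted p = 4.23e-09). The difference of 9w minus 6w was 0.16 ± 0.10 and did not pass (adjusted p = 0.322).

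The type I receptor Tgfbr1, a kinase that phosphorylates SMAD2 and SMAD3, was read by 2 probe sets that opposed each other. The brighter one, 1376636_at, had group means of 1711 ± 33.3 at 0h, 1978 ± 81.8 at 3w, 1738 ± 58.0 at 6w and 2110 ± 143 at 9w. Its differences from 0h were at most 0.30 ± 0.06, at 9w (adjusted p = 0.000454), far from 2-fold. The other, 1369504_at, had signals of 349.0, 228.8 and 331.1 at 0h, 185.6, 110.2 and 128.8 at 3w, 169.7, 165.3 and 146.8 at 6w, and 63.6, 51.8 and 94.2 at 9w.

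All 9 arrays of the model lay below all 0h arrays on that second probe set. The fall at 9w was -1.90 ± 0.23 (adjusted p = 2.65e-06), and 9w also fell against 6w, by 1.07 ± 0.23 (adjusted p = 0.00235). The fall at 3w, -1.02 ± 0.23 (adjusted p = 0.00202), was at the 2-fold limit and was short of it without any one of 4 arrays, with values of -0.92 without 0h replicate 1, -0.95 without 0h replicate 3, -0.88 without 3w replicate 2 and -0.98 without 3w replicate 3. At 6w the difference was -0.83 ± 0.23 (adjusted p = 0.00622), and -1.01 without 0h replicate 2. The step of 9w minus 6w was -0.91 without 9w replicate 2. The 9w mean, 69.9, was under the filter level, and with 64 added the differences of 3w minus 0h and 9w minus 6w were -0.84 and -0.76, short of 2-fold. The authors' deposited table gave median log2 ratios of -1.0, -0.8 and -2.1 for this probe set at 3w, 6w and 9w, and 0.2, 0.0 and 0.2 for the brighter one. The direction of Tgfbr1 as a gene is therefore not settled by this array.

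The type II receptor Tgfbr2, which binds the ligand first, was lower at 9w. Its signals were 179.5, 137.4 and 127.5 at 0h, 237.2, 127.0 and 104.7 at 3w, 113.5, 186.1 and 179.0 at 6w, and 71.0, 58.9 and 29.0 at 9w. The 3 arrays of 9w lay below all 9 others, and the other 3 groups overlapped. The fall was -1.29 ± 0.30 against 0h (adjusted p = 0.00188), -1.37 ± 0.30 against 6w (adjusted p = 0.00292) and -1.30 ± 0.30 against 3w (adjusted p = 0.00235). Without 3w replicate 1 the last was -0.98, short of 2-fold. Signals at 9w were under the filter level, and with 64 added in place of 16 these values were -0.87, -0.94 and -0.88, all short of 2-fold. The median of the authors' deposited log2 ratios at 9w was -1.8.

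The co-receptor Tgfbr3 (betaglycan), which presents ligand to the other receptors, did not pass in any comparison. Its brighter probe set had means of 107 ± 21.6 at 0h, 151 ± 35.0 at 3w, 158 ± 54.2 at 6w and 120 ± 26.6 at 9w, and every pair of groups overlapped. The other, 1369219_at, had means of 86.8 ± 22.4 at 0h, 100 ± 26.6 at 3w, 130 ± 31.5 at 6w and 66.6 ± 45.1 at 9w. Its 9w arrays (78.2, 16.8 and 104.8) lay below those of 6w (110.9, 113.6 and 166.8), with a difference of -1.0 ± 0.38 that did not pass (adjusted p = 0.0704). Without 9w replicate 3 it was -1.38 and passed (adjusted p = 0.0196), and without 9w replicate 2, the array at 16.8, it was -0.44 (adjusted p = 0.349).

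**Figure D3:**
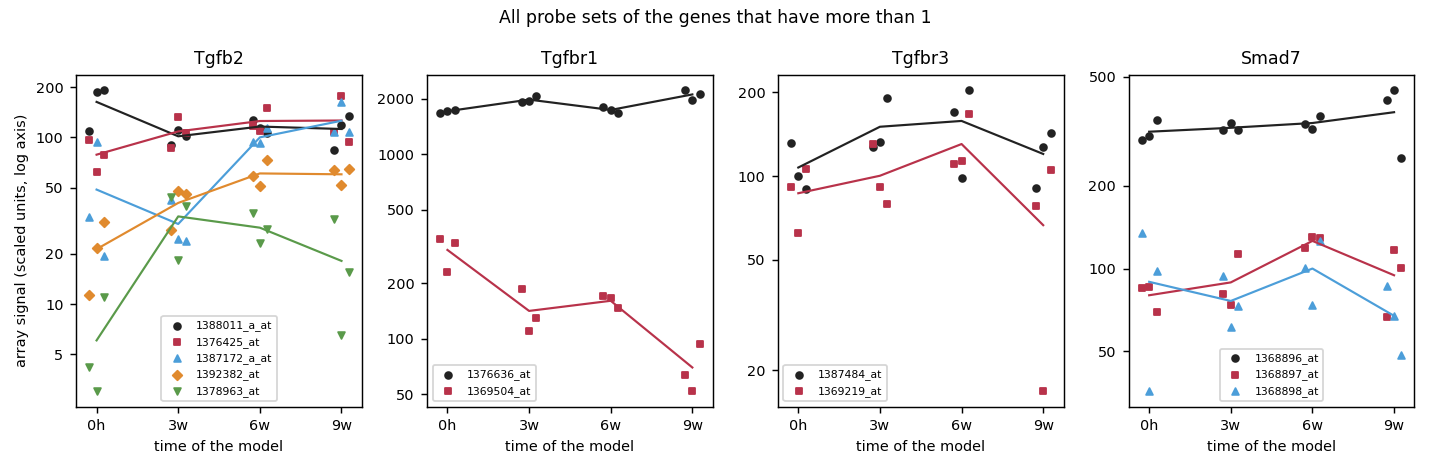
Array signal in scaled units (log axis) of every probe set of the 4 genes read by more than 1, at 0h, 3w, 6w and 9w; symbols are single arrays and lines join the means of 3. The 2 probe sets of Tgfbr1 part in direction, the 5 of Tgfb2 share no course, and those of Tgfbr3 and Smad7 overlap between most groups.

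Neither inhibitor rose or fell at any time. Smad7, an inhibitory SMAD that is itself induced by the pathway, had signals of 294.4, 302.7 and 348.1 at 0h, 320.0, 337.6 and 319.3 at 3w, 335.0, 321.4 and 360.3 at 6w, and 411.7, 448.4 and 253.1 at 9w on its brightest probe set. All groups overlapped and the differences from 0h were 0.05, 0.10 and 0.19 (SE 0.16 each, adjusted p = 0.841, 0.632 and 0.35). Its other probe sets, 1368897_at and 1368898_at, did not pass either, with differences from 0h between -0.23 and 0.57. On 1368897_at the 6w arrays (118.9 to 129.9) lay above those of every other group, with 69.3 to 85.9 at 0h. That difference from 0h was 0.57 ± 0.23 (adjusted p = 0.0552). Bambi, a decoy receptor without a kinase, had signals of 260.5, 293.2 and 305.0 at 0h, 330.1, 444.1 and 328.8 at 3w, 288.5, 311.0 and 301.7 at 6w, and 410.5, 386.9 and 341.6 at 9w. Its arrays at 3w and at 9w lay above those of 0h, by 0.33 ± 0.13 (adjusted p = 0.0509) and 0.39 ± 0.13 (adjusted p = 0.0191), both short of 2-fold, and at 6w the difference was 0.07 ± 0.13 (adjusted p = 0.694).

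**Figure D4:**
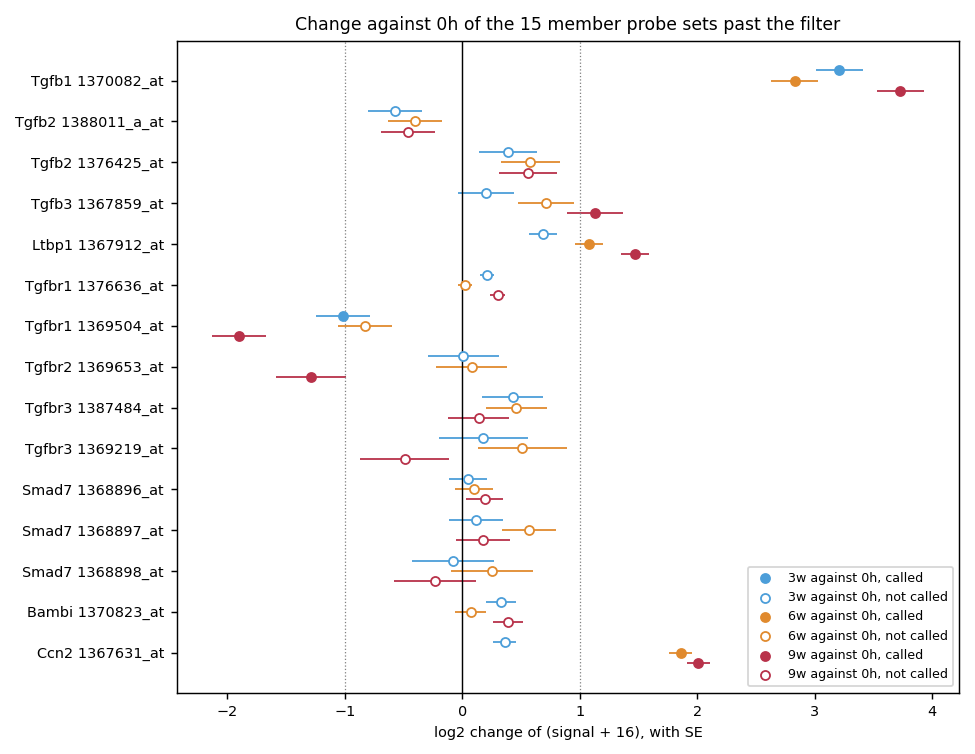
Change of log2(signal + 16) against 0h, with SE (horizontal axis), of the 15 probe sets past the filter at 3w, 6w and 9w; filled points passed an adjusted p of 0.05 and 2-fold (dotted lines), open points did not. Tgfb1 lies between 2.83 and 3.73, Ccn2 passes at 6w and 9w, and the falls are those of Tgfbr1 1369504_at and Tgfbr2.

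Counted by gene, 1 of the 10 rose at 3w (Tgfb1), against 2.92% of the 10317 genes tested, and none fell, against 1.27%. At 6w 3 rose (Tgfb1, Ltbp1 and Ccn2), against 5.14%, and none fell, against 4.43%. At 9w 4 rose (these and Tgfb3), against 6.32%, and Tgfbr2 fell, against 3.63%. The median change of the 10 was 0.27 at 3w, 0.28 at 6w and 0.34 at 9w, beside 0.01, 0.03 and 0.07 for all genes. The 3 arrays lay wholly above 0h for 5 of the 10 at 3w (25.8% of all genes), 4 at 6w (32.3%) and 6 at 9w (35.9%). They lay wholly below 0h for none at 3w (23.9%), none at 6w (27.7%) and 1 at 9w (25.9%). In the step of 6w minus 3w, 1 rose (3.21% of all genes) and none fell (4.31%). In that of 9w minus 6w, Tgfbr2 fell (0.582%) and none rose (1.94%). In 9w minus 3w, Ccn2 rose by 1.65 ± 0.10 (3.01%) and Tgfbr2 fell (2.76%).

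Of 20 measured SMADs and signal modulators, none passed at 3w, 1 rose at 6w and 2 rose at 9w, and none fell, with list medians of -0.07, 0.06 and 0.06. These counts are near the shares of all genes that rose (2.92%, 5.14% and 6.32%) and fell (1.27%, 4.43% and 3.63%), and so are no result about the list. Tgif1, a corepressor of SMAD2 and SMAD3, had signals of 1210 ± 87.6 at 6w and 1238 ± 71.6 at 9w, against 448 ± 65.1 at 0h, a rise of 1.41 ± 0.10 (adjusted p = 3.58e-09) and of 1.44 ± 0.10 (adjusted p = 2.76e-09). Pmepa1, a TGF-beta target that dampens the pathway, rose at 9w to 438 ± 69.6, against 189 ± 22.9 at 0h, by 1.14 ± 0.13 (adjusted p = 1.8e-06). In the BMP branch, which signals through other SMADs, 1 of 11 measured genes rose at 6w and at 9w and none fell at any time, again near the shares of all genes. It was Bmp4, a ligand, at 106 ± 30.6 at 6w and 115 ± 14.2 at 9w, against 41.3 ± 46.1 at 0h, a rise of 1.36 ± 0.45 (adjusted p = 0.0204) and of 1.49 ± 0.45 (adjusted p = 0.0114). Its 0h mean was under the filter level, so it passed the filter through the model's arrays. The BMP list's medians were -0.03, 0.29 and 0.35.

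Among 15 measured genes of latency and activation, 2 rose at each time and none fell, with medians of 0.73 at 3w, 0.32 at 6w and 0.61 at 9w. Of all genes, 2.92% rose and 1.27% fell at 3w, 5.14% and 4.43% at 6w, and 6.32% and 3.63% at 9w. Dcn (decorin), a proteoglycan that binds TGF-beta, rose at all 3 times by 1.87 to 1.89, to means of 1880 ± 146 at 3w, 1863 ± 51.4 at 6w and 1851 ± 76.2 at 9w, against 495 ± 47.8 at 0h. Aspn (asporin), of the same proteoglycan family, rose at 3w by 1.25 ± 0.24 (adjusted p = 0.000549). Plat, a plasminogen activator whose product plasmin can release latent ligand, rose by 1.68 ± 0.15 at 6w (adjusted p = 1.07e-07) and by 1.92 ± 0.15 at 9w (adjusted p = 2.1e-08). Of the other latency proteins, Ltbp4 differed from 0h by 0.86 ± 0.15 at 3w, 0.17 ± 0.15 at 6w and 0.55 ± 0.15 at 9w and Ltbp3 by 0.18, 0.04 and 0.14, and neither reached 2-fold.

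The next list held transcripts known to be induced by TGF-beta. Of 20 measured, 8 rose and 1 fell at 3w (median 0.75), 1 rose and 1 fell at 6w (median 0.19), and 4 rose and 1 fell at 9w (median 0.50). Of all genes, 2.92% rose and 1.27% fell at 3w, 5.14% and 4.43% at 6w, and 6.32% and 3.63% at 9w. The counts at 6w are near these shares and so are no result about the list. Col1a1, a chain of type I collagen, had means of 771 ± 43.5 at 3w, 315 ± 50.1 at 6w and 537 ± 57.9 at 9w, against 151 ± 9.5 at 0h. It rose by 2.24 ± 0.12 at 3w and by 1.73 ± 0.12 at 9w, and was 0.98 ± 0.12 at 6w, just short of 2-fold. Col3a1 (type III collagen) rose at 3w by 1.61 ± 0.05 and Col5a1 (type V) by 1.44 ± 0.19, while at 6w and 9w they were between 0.61 and 0.75, short of 2-fold. Timp1, an inhibitor of matrix proteases, rose at 9w, by 1.35 ± 0.11 (adjusted p = 2.61e-08). Cdkn1a, a cell cycle inhibitor with several inducers, rose by 1.73 ± 0.16, 2.82 ± 0.16 and 2.80 ± 0.16 at 3w, 6w and 9w. Lox, a collagen crosslinker, fell by 1.68 ± 0.16, 2.12 ± 0.16 and 1.86 ± 0.16.

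Ccn2 and Col1a1, both TGF-beta targets, took opposite steps between 3 and 6 weeks. In 6w minus 3w Ccn2 rose by 1.50 ± 0.10 and Col1a1 fell by 1.26 ± 0.12 (adjusted p = 2.95e-07). Tgfb1 itself lay between, at -0.37 ± 0.20, without passing. Of the 20 transcripts of the list, 1 rose in this step (Cdkn1a, by 1.08 ± 0.16), against 3.21% of all genes. Col1a1 was 1 of 2 that fell, against 4.31%, and 17 did not pass. These counts are near the shares of all genes and so are no result about the list. The list median in this step was -0.53, beside 0.02 for all genes, so Col1a1 was not alone in being lower at 6w.

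**Figure D5:**
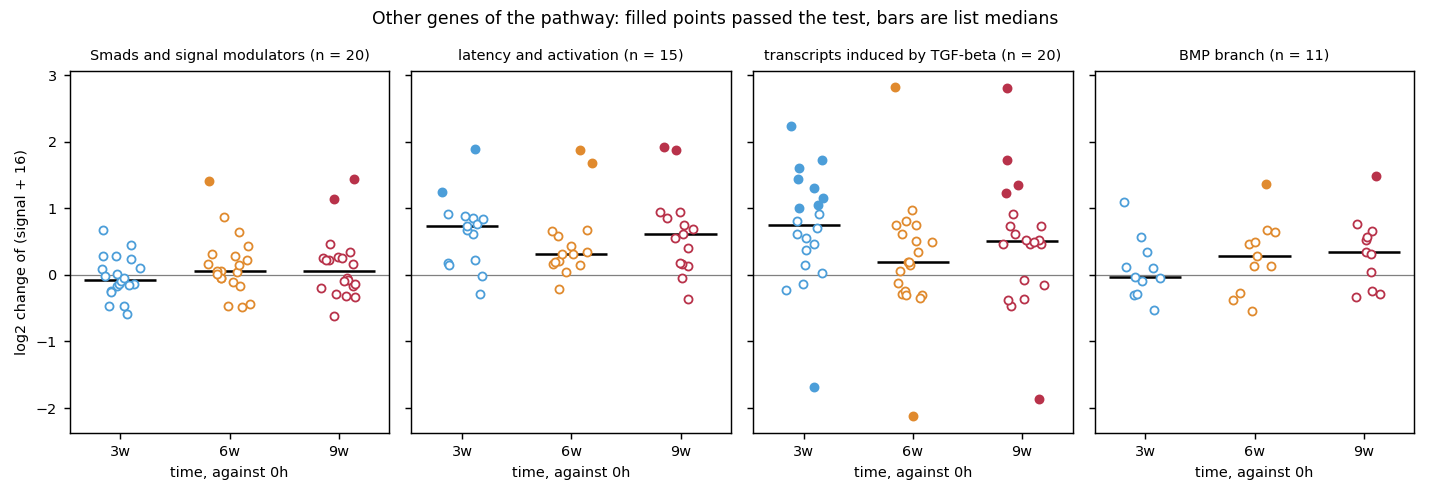
Change of log2(signal + 16) against 0h at 3w, 6w and 9w (vertical axis) of other genes of the pathway in 4 lists; filled points passed the test, open points did not, and bars are list medians. The transcripts induced by TGF-beta have their highest median, 0.75, at 3w, and the SMADs and modulators stay near 0.

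The genes whose course over the 12 arrays was most like that of Tgfb1 were Pi16, a peptidase inhibitor (r = 0.992), Serpina7, the thyroxine-binding globulin of plasma (0.991), Cideb, a lipid droplet protein of hepatocytes (0.989), Nr2f6, a nuclear receptor (0.984), and Gda, guanine deaminase (0.983). Pi16 had means of 12.7 ± 5.8 at 0h, 140 ± 13.8 at 3w, 124 ± 12.4 at 6w and 176 ± 12.0 at 9w, and Serpina7 of 2429 ± 65.4, 8659 ± 384, 8399 ± 625 and 11214 ± 148 at the same times. Those most like Ccn2 were Sptan1, a spectrin chain (r = 0.996), Isyna1, of inositol synthesis (0.995), Unc5b, a netrin receptor (0.992), Agmat (0.992) and Hid1 (0.992). Isyna1 had means of 172 ± 26.0 at 0h, 266 ± 25.4 at 3w, 1911 ± 100 at 6w and 1936 ± 89.9 at 9w. These r are Pearson's over arrays that form 4 groups of 3 and so rest mainly on 4 group levels, and they are given as a description. Among the members, Ccn2 correlated with Ltbp1 at 0.91 and with Tgfb3 at 0.90, and with Tgfb1 at 0.70, over the same 12 arrays.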

How the data were processed

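Liver RNA was hybridised to 12 arrays. Per the submitters' processing notes, the authors used GCOS 2.0; its settings are not given in the sources used here. Per the file headers, each array has 1 intensity column in the authors' workbook; its trimmed mean was 500.2 on every array, and the deposited series table holds the same intensities within 0.1. The authors' log2 ratios and fold ratios against 0h are also in the workbook, made by a method not given; only the log2 ratios are quoted. Detection calls were not used here. Unmatched columns numbered 0. Array medians were 7.09 to 7.31 as log2(signal + 16), so nothing was renormalized. Arrays correlated at 0.967 to 0.977 within groups and 0.937 to 0.969 between groups. Their number limits the precision, and no counts stand behind a signal.

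Probe sets with a mean above the 40th percentile were kept, controls aside. limma 3.58.1 (R 4.3.3; lmFit, eBayes with trend) was run on all 12 arrays with a mean for each group, leaving 8 degrees of freedom, for 6 comparisons. The fit was tested on simulated data. Symbols were updated with a RefSeq gene table (GRCr8). Tables used Python 3.11.15 and pandas 2.3.3.

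The members and lists were chosen with earlier results of these data known, so a list's direction is not independent evidence. All members are named with all probe sets. From each other list of pathway genes, up to 6 genes called against 0h with the largest change are named. Ltbp3 and Ltbp4 were added as latency proteins and were not called against 0h. The 5 genes most like Tgfb1 and the 5 most like Ccn2 are named as well. Marker lists held markers of hepatocytes and 7 other cell types or tissues. For the stellate cell list, only rises are given; its falls and summed signal are not reported here.

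Replicate numbers are shared between groups, but deviations of same-numbered arrays correlated at -0.038 to 0.123 over 18 pairs, so they were not taken as pairs.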

Additional observations from a re-analysis of the deposited data

Results flagged for a closer look

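At an adjusted p under 0.05 and 2-fold, effects against 0h differed between times for Ccn2 and Tgfbr2 by the brightest probe set. For Tgfbr1 they did so only on its dimmer probe set. They were tested as the step between the times in the limma fit over all probe sets. Steps with an adjusted p under 0.05 but short of 2-fold, such as 0.78 ± 0.12 for Ltbp1 in 9w minus 3w (adjusted p = 6.73e-05), are not counted. Ccn2 was higher at 6w than at 3w (1.50) and higher at 9w than at 3w (1.65). Tgfbr2 was lower at 9w than at 6w (-1.37) and lower at 9w than at 3w (-1.30). The Tgfbr1 probe set 1369504_at was lower at 9w than at 6w (-1.07), while the brighter probe set of that gene gave 0.28 for the same step. Of all genes, 3.21% rose and 4.31% fell in 6w minus 3w, and 3.01% and 2.76% in 9w minus 3w. In 9w minus 6w, 1.94% rose and 0.582% fell. Groups of 3 arrays are too small for a check of single outlying arrays.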

How the results depend on the processing

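The counts of TGF-beta members called were 1, 3 and 5 at 3w, 6w and 9w against 0h, and 1, 1 and 2 for 6w minus 3w, 9w minus 6w and 9w minus 3w. Leaving out 1 array at a time gave 1 to 1, 3 to 3, 4 to 5, 1 to 1, 1 to 1 and 2 to 3. With 64 added to the signal, the count was 2 at 6w, 3 at 9w, 0 for 9w minus 6w and 1 for 9w minus 3w, where Tgfb3 and Tgfbr2 were short of 2-fold. With a filter at the 60th percentile it was 0 at 3w, 2 at 6w, 2 at 9w, 0 for 9w minus 6w and 1 for 9w minus 3w, because that filter leaves fewer members tested and drops Tgfb1. With the replicate block the counts were 1, 3, 5, 1, 1 and 2; an array correlated best with its own number in 17 of 36 cases, a hint from the data only, and the block changed 1 call among member probe sets, Tgfbr3 1369219_at in 9w minus 6w (-1.0, adjusted p = 0.0406). Tgfb3 in 9w minus 3w, 0.93 here, passed 2-fold with 4 added (1.03), with quantile normalization (1.01), with median centring (1.0) and without 3w replicate 1 or 9w replicate 2 (1.04 each). With 64 added, Ltbp1 at 6w was 0.93. Among the 15 probe sets past the filter, no call changed with no filter, without the intensity trend, with only the 2 groups compared or with the series table's values. With 1 probe set per gene, only the brightest of each gene was fitted, and no call changed among those. With no filter, the 3 dim probe sets of Tgfb2 also passed in some comparisons. Among the same 15, no call changed direction under any alternative that tested it. Dim signals limit Tgfb1 and Tgfb3 at 0h, Tgfbr2 and Tgfbr1 1369504_at at 9w and 3 probe sets of Tgfb2.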
